A study of Mus musculus with 24 samples.

Results

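Chromatin modifying and remodelling enzymes were followed in skeletal muscle in which the reprogramming factors Oct4, Sox2, Klf4 and c-Myc (OSKM) had been switched on in myofibres. Members were the protein-coding genes whose symbols begin with Kmt, Setd, Ezh, Kdm, Kat, Hdac, Cbx, Chd or Smarc followed by a digit in the name, or with Smarc alone, and 93 of the 24537 genes in the count table met this rule. Of these, 92 had enough reads to be tested, and the remaining one, Kdm4d, held 0 to 3 counts in every library. The symbol rule also took in 5 katanins, among them Katna1, Katnal1, Katnal2 and Katnbl1, which cut microtubules and are not chromatin enzymes, and the read-through gene Setdb2-phf11c, whose counts were close to those of Setdb2 in every library (109 to 295 against 103 to 290), so that the pair cannot be told apart. Without these 6 genes there were 87 members.

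RNA was sequenced from the extensor digitorum longus (EDL), a mostly fast-twitch muscle, and the soleus (SOL), a mostly slow-twitch muscle, of 2-month-old Acta1-Cre+/4Fhet (Cre+) and Acta1-Cre-/4Fhet (Cre-) mice. By the study's methods, mice of both genotypes carried 1 copy of a doxycycline-driven OSKM cassette and a ROSA26 allele in which a floxed stop cassette blocks the rtTA activator, and all received doxycycline (Dox) at 1 mg/ml in the drinking water. Dox lasted 2.5 days, 5.5 days or 8.5 days. The Acta1-Cre transgene is active in myofibres, so that other cells of a Cre+ muscle should not make OSKM, and no group without Dox was analysed here. Each of the 12 groups had 2 libraries.

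These enzymes write, erase and read chemical marks on histones or slide nucleosomes along DNA. Methyltransferases (Kmt, Setd, Ezh) and acetyltransferases (Kat) add marks, demethylases (Kdm) and deacetylases (Hdac) take them off, chromodomain proteins (Cbx) bind methylated histone tails, and ATP-driven remodellers (Chd, Smarc) move or evict nucleosomes. Several are known from muscle, such as the Smarcd3 (BAF60C) subunit that works with MyoD, the class IIa deacetylases that hold back MEF2, and Ezh2 in dividing muscle precursors. Others, among them Ezh2, Smarca4, Smarcc1, Kdm2b, Kdm6a and Chd1, are known for their part in reprogramming or pluripotent cells.

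The total count per library lay between 36088781 and 54679082. Summed OSKM transcripts were between 74.5 and 260.5 FPKM (counts per kilobase of exon and per 1e6 counts of the library) in Cre+ EDL at 2.5 days, 205 to 254 at 8.5 days, 31.3 to 57.8 in Cre+ SOL at these times and 9.49 to 25.2 in the corresponding Cre- libraries. At 5.5 days they reached 13.1 and 109 in the pair of Cre+ EDL libraries and 8.43 and 15.4 in Cre+ SOL, and the study's methods left out samples that lacked OSKM, without saying which. Myofibre markers summed to 22980 to 28320 FPKM in Cre+ EDL at 2.5 and 8.5 days and to 38370 to 43020 in Cre- EDL, and fast-fibre markers were lower as well. Of the marker lists of other cells, the endothelial one had 3 of 5 genes called lower in Cre+ EDL at 2.5 days (summed level 68.5 to 70.5 against 73.7 to 86.3 FPKM), and no marker of satellite cells, macrophages, fibroblasts, Schwann cells or proliferating cells was called in EDL at 2.5 or 8.5 days. At 8.5 days the endothelial sums overlapped (82.4 to 95.1 in Cre+ against 78.35 to 89.1 in Cre- EDL). Fibroblast sums were then higher in Cre+ EDL (1163 to 1472 against 930.5 to 946 FPKM), and they overlapped at 2.5 days. Proliferation markers summed to less than 5 FPKM in all libraries. The part of these shifts in the results below was not tested, and in whole muscle fewer cells of a type and less RNA per cell cannot be told apart.

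In Cre- muscle, the members covered a wide range of levels. The BAF subunit Smarcd3 was the most abundant in both muscles, at 61.2 ± 3.03 FPKM in EDL and 62.2 ± 4.92 in SOL (SD, n = 4 libraries of 2.5 and 8.5 days). In EDL it was followed by Setd7, a methyltransferase of histone H3 and of other proteins, at 59.5 ± 6.80 FPKM, and by Setd3, an actin histidine methyltransferase, at 50.1 ± 3.76 FPKM, and the first pair differed by less than its SD. The class I deacetylases Hdac2 (36.6 ± 2.93 FPKM in EDL) and Hdac3 (33.7 ± 2.99), the class IIa deacetylase Hdac5 (26.8 ± 3.28), the monomethyltransferase of histone H4 Kmt5a (22.3 ± 2.11), the acetyltransferase Kat2b (20.7 ± 5.72) and the NuRD remodeller Chd4 (19.6 ± 2.56) made up the next tier. The family medians in Cre- EDL ran from 3.70 FPKM for Chd and 4.06 for Kdm to 8.82 for Smarc and 9.17 for Kat, and the katanins had a median of 1.74.

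Within several families of alternative subunits, one paralogue carried most of the transcripts in both muscles. Ezh1, the Polycomb methyltransferase typical of non-dividing cells, stood at 14.2 ± 2.20 FPKM in Cre- EDL and 14.3 ± 1.34 in Cre- SOL, while Ezh2, typical of dividing cells, stood at 1.94 ± 0.205 and 2.22 ± 0.119. Ezh1 therefore made up between 81.6 and 91.2% of the summed Ezh level over all 24 libraries. Among the BAF60 subunits, Smarcd3 made up between 70.3 and 86.9% over the 24 libraries, ahead of Smarcd2 and Smarcd1. The ATPases Smarca2 (BRM) and Smarca4 (BRG1), by contrast, were at similar levels in Cre- EDL, 10.9 ± 1.11 and 11.2 ± 1.82 FPKM.

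In Cre- mice, the fast and the slow muscle differed in 12 of 92 members by edgeR's quasi-likelihood test (adjusted p under 0.05 by Benjamini-Hochberg and absolute log2 fold change over 0.5). Of the members, 7 were higher in EDL (7.61%) and 5 were higher in SOL (5.43%), against 10.8% and 11.1% (21.9% either way) of all 15372 genes tested, shares that lay above those of the members. These Cre- libraries are also the controls of the OSKM comparisons below. The fit did not pair the muscles of a mouse. With the replicate number as a block, all 12 members were still called. The clearest member was Setd7, which read 62.6, 56.2, 67.2 and 51.8 FPKM in Cre- EDL and 18.6, 21.8, 18.7 and 20.8 in Cre- SOL. All EDL values lay above all SOL values, and the log2 fold change was 1.67 ± 0.10 (SE, adjusted p = 2.00e-07).

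**Figure D1:**
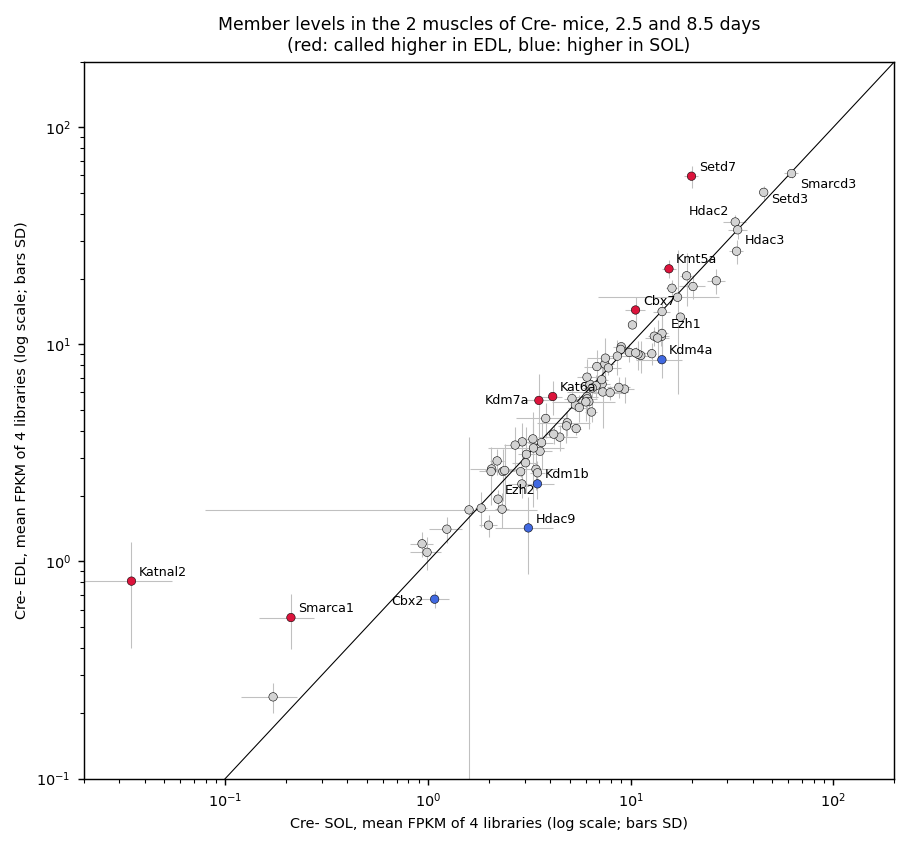
Mean FPKM of tested members in Cre- EDL (vertical axis, log scale) against Cre- SOL (horizontal axis, log scale), each over 4 libraries of 2.5 and 8.5 days, with bars for the SD. Red points are the 7 members called higher in EDL and blue points are 4 of the 5 called higher in SOL; most members lie near the line of equal level, Setd7 and Katnal2 lie far above it, and the widest bars belong to Setd5 and to the Y-linked Kdm5d.

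The other members higher in EDL were Katnal2, Smarca1, Kdm7a, Kmt5a, Kat6a and Cbx7. Katnal2, one of the katanins, had 29 to 104 counts in the 4 Cre- EDL libraries and 1 to 4 counts in the 4 Cre- SOL libraries, a fitted log2 fold change of 4.57 ± 0.52. Smarca1, the ISWI remodeller SNF2L, was low in both muscles (0.552 ± 0.155 against 0.211 ± 0.0636 FPKM), with a log2 fold change of 1.51 ± 0.23. For the demethylase Kdm7a the log2 difference was 0.74 ± 0.17, and without the Cre- EDL library of 8.5 days, replicate 1, it was 0.47 and no longer passed the fold threshold. Kmt5a was 0.62 ± 0.14 higher on the log2 scale, and all 4 EDL values (19.4 to 24.3 FPKM) lay above all 4 SOL values (14.2 to 17.2). The acetyltransferase Kat6a (0.57 ± 0.10) and the Polycomb chromodomain protein Cbx7 (0.53 ± 0.12) had overlapping libraries on the FPKM scale. Kat6a fell below the fold threshold without replicate 1 of EDL at 2.5 days (0.48) or at 8.5 days (0.48), and Cbx7 did so without EDL replicate 1 of 2.5 days (0.41) or SOL replicate 2 of 2.5 days (0.44) or 8.5 days (0.47).

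Among the members higher in SOL were Hdac9, Kdm4a, Cbx2 and Kdm1b. Hdac9, a class IIa deacetylase, read 1.22, 0.953, 2.22 and 1.32 FPKM in Cre- EDL and 2.17, 2.66, 3.21 and 4.48 in Cre- SOL, so that the highest EDL value just passed the lowest SOL value, and the log2 fold change of EDL over SOL was -1.04 ± 0.16 (adjusted p = 0.00024). Cbx2, a chromodomain subunit of Polycomb repressive complex 1 (PRC1), gave -0.58 ± 0.16, in the opposite direction to Cbx7 of the same complex, and was below 2 FPKM in all Cre- libraries. Kdm4a, a demethylase of histone H3, gave -0.63 ± 0.13, and Kdm1b, a flavin-dependent demethylase, gave -0.51 ± 0.16. The call of Cbx2 was lost without replicate 1 of EDL at 2.5 days (-0.54), of SOL at 2.5 days (-0.51) or of EDL at 8.5 days (-0.49), and that of Kdm1b without EDL replicate 1 of 2.5 days (-0.47), SOL replicate 2 of 2.5 days (-0.43), EDL replicate 2 of 8.5 days (-0.41) or SOL replicate 2 of 8.5 days (-0.35).

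OSKM induction was next compared between Cre+ and Cre- mice in EDL. At 2.5 days 7 members rose and 6 fell, and at 8.5 days 5 rose and 3 fell. The shares were 7.61% higher and 6.52% lower at 2.5 days, where 13.8% and 10.2% of all genes tested were called, and 5.43% and 3.26% at 8.5 days, where 7.63% and 6.5% were called. The members' shares lay below those of all genes at both times, a difference that was not tested. Counts by family below stand beside the same shares of all genes, and nothing particular to a family is read from them. Their median log2 fold change was -0.02 at 2.5 days and -0.06 at 8.5 days, beside -0.05 and -0.02 over all genes, and their median absolute change was 0.28 and 0.23, beside 0.39 and 0.31. The fits scale libraries by the trimmed mean of M values (TMM), whereas FPKM divides by the total count. Scaling by library size alone moved the median over all genes in EDL to 0.28 at 2.5 days and to 0.16 at 8.5 days and the members' median to 0.31 and 0.12, and it called 25 members higher and 2 lower at 2.5 days. Ratios of the FPKM values printed here are therefore higher than the fitted fold changes by about that shift, and changes are reported relative to it. Of the 6 falls at 2.5 days, Kdm2b and Smarcd3 kept their call with library size alone. Hdac7 (-0.48), Kdm6b (-0.27), Chd2 (-0.27) and Chd3 (-0.23) lost theirs. On the FPKM scale both Cre+ EDL libraries lay above both Cre- libraries in 52.09% of all genes at 2.5 days and 40.35% at 8.5 days, and below them in 15.41% and 15.49%.

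**Figure D2:**
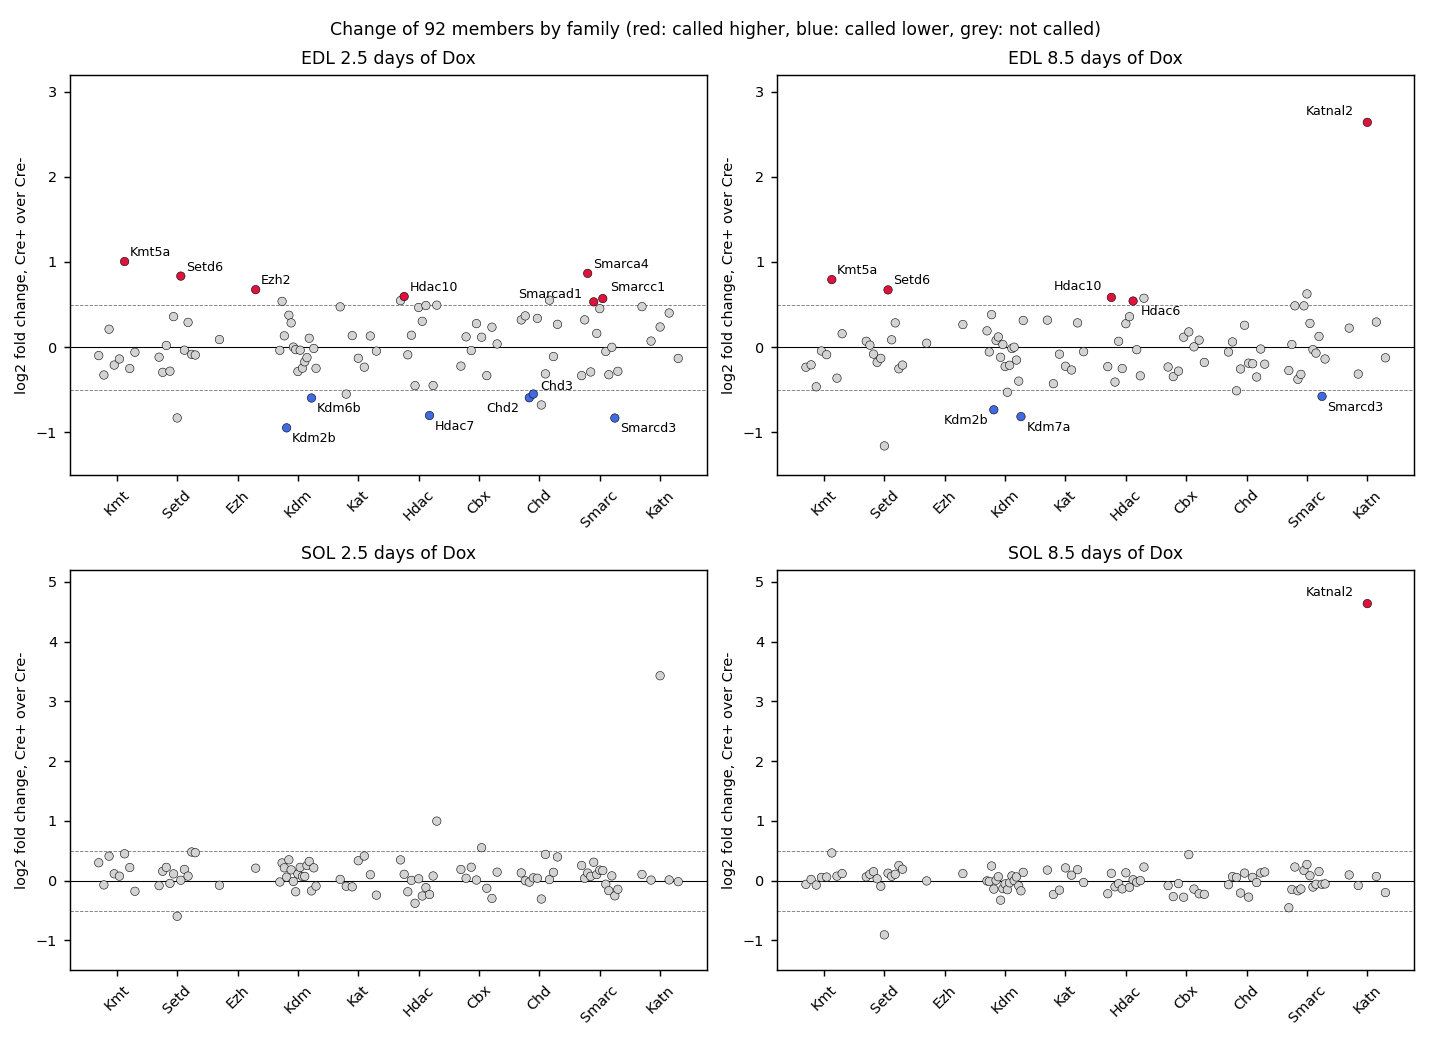
Fitted log2 fold change of Cre+ over Cre- (vertical axis) for the 92 tested members, grouped by family (horizontal axis), in EDL and SOL after 2.5 or 8.5 days of Dox. Each point is 1 gene, red where called higher and blue where called lower, and dashed lines mark 0.5 and -0.5; calls are spread over most families in EDL, and in SOL the only called gene is Katnal2 at 8.5 days.

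Among the methyltransferases of the Kmt, Setd and Ezh families, Setdb2-phf11c included, 3 of 21 rose at 2.5 days and 2 of 21 at 8.5 days. None fell at either time. Among all genes, 13.8% were higher and 10.2% lower at 2.5 days, and 7.63% and 6.5% at 8.5 days. Kmt5a read 19.4 and 24.3 FPKM in Cre- EDL and 41.4 and 69.9 in Cre+ EDL at 2.5 days, and 23.2 and 22.2 against 44.97 and 44.1 at 8.5 days. All Cre+ values lay above all Cre- values, and Cre+ replicate 2 of 2.5 days was the highest library. The fitted change was 2.01-fold at 2.5 days (log2 1.00 ± 0.19, adjusted p = 0.0021) and 1.73-fold at 8.5 days (log2 0.79 ± 0.19, adjusted p = 0.015). At 2.5 days the log2 change was 0.64 without Cre+ replicate 2 and was still called. At 8.5 days it stayed between 0.75 and 0.83 when any 1 of the 4 libraries was left out, with an adjusted p between 0.051 and 0.072.

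Setd6, which methylates the NF-kB subunit RelA and other proteins, behaved in the same direction. It read 6.87 and 6.71 FPKM in Cre- EDL and 11.8 and 18.9 in Cre+ EDL at 2.5 days, and 5.29 and 6.93 against 11.1 and 11.1 at 8.5 days, with no overlap between genotypes. The fold changes were 1.78 (log2 0.83 ± 0.19, adjusted p = 0.0058) and 1.59 (log2 0.67 ± 0.19, adjusted p = 0.030). The call was lost at 2.5 days without Cre+ replicate 2 (log2 0.51), and at 8.5 days without Cre- replicate 1 (0.48), Cre+ replicate 1 (0.72) or Cre+ replicate 2 (0.62).

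Ezh2 read 1.76 and 1.87 FPKM in Cre- EDL and 2.52 and 4.85 in Cre+ EDL at 2.5 days, and 2.23 and 1.88 against 2.82 and 2.78 at 8.5 days. It rose 1.60-fold at 2.5 days (log2 0.68 ± 0.23, adjusted p = 0.046), a call that rested on Cre+ replicate 2, since the log2 change was 0.19 without that library and 1.04 without Cre+ replicate 1. It also missed the threshold without Cre- replicate 1 (0.61) or Cre- replicate 2 (0.74), and it was not called with DESeq2 on the 4 libraries of the comparison. At 8.5 days its log2 change was 0.27 ± 0.23 and was not called. Ezh1 was not called at either time (0.09 ± 0.14 and 0.05 ± 0.14). Ezh2 made up 18.4% of the summed Ezh level in Cre+ EDL replicate 2 at 2.5 days, 10.98% in replicate 1, and 9.69 and 11.1% in the Cre- libraries of that day. At 8.5 days the shares overlapped, at 15.7 and 16.1% in Cre+ EDL and 16.6 and 11.8% in Cre- EDL.

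Among the demethylases, 2 of 17 tested fell at 2.5 days (Kdm2b and Kdm6b), 2 fell at 8.5 days (Kdm2b and Kdm7a) and none rose. Of all genes, 10.2% were lower at 2.5 days and 6.5% at 8.5 days, and 13.8% and 7.63% were higher. Kdm2b brings variant PRC1 to CpG islands and removes methyl groups from histone H3. In Cre- EDL it read 2.83 and 2.51 FPKM at 2.5 days and 2.49 and 2.84 at 8.5 days, and in Cre+ EDL 1.89 and 1.57, then 1.95 and 1.69. All Cre+ values were below all Cre- values on both days. The log2 fold changes were -0.95 ± 0.17 (0.519-fold, adjusted p = 0.0015) and -0.73 ± 0.17 (0.601-fold, adjusted p = 0.012). The call of 2.5 days held whichever library was left out, and that of 8.5 days was lost without Cre+ replicate 1 (-0.78), Cre+ replicate 2 (-0.69) or Cre- replicate 2 (-0.62). By GENCODE transcripts, 10.7% of its exon bases overlap Rnf34 on the other strand. In the RefSeq coordinates deposited with the counts, the genes do not overlap and lie 1731 bases apart. Rnf34 was itself lower in Cre+ EDL at 2.5 days (-0.65 ± 0.11).

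Kdm6b (JMJD3), which removes the Polycomb mark, read 9.36 and 7.47 FPKM in Cre- EDL and 6.86 and 7.11 in Cre+ EDL at 2.5 days and fell by 0.60 ± 0.15 on the log2 scale (adjusted p = 0.0088). Its call was lost without Cre- replicate 1 (-0.45) or Cre+ replicate 2 (-0.58). The X-linked Kdm6a, which acts on the same mark, gave 0.10 ± 0.19 at 2.5 days. Kdm7a read 8.14 and 4.23 FPKM in Cre- EDL and 3.79 and 4.13 in Cre+ EDL at 8.5 days (log2 -0.81 ± 0.24, adjusted p = 0.034). The value rested on 1 high Cre- library, since without Cre- replicate 1 the log2 change was -0.29. The call was also lost without Cre+ replicate 1 (-0.70) or Cre+ replicate 2 (-0.93). At 2.5 days Kdm7a read 5.12 and 4.58 FPKM in Cre- EDL and 5.32 and 6.78 in Cre+ EDL and was not called. Its change at 8.5 days minus its change at 2.5 days was -0.80 on the log2 scale, which was not called. The lysine demethylase Kdm1a (LSD1) was not called (-0.04 ± 0.12 and 0.19 ± 0.12).

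None of the 7 acetyltransferases was called in EDL by the main edgeR fit or by DESeq2 at either time. In the main fit 3 of them had an unadjusted p under 0.05 at 2.5 days and 1 at 8.5 days. With library size alone, edgeR called Kat2a at 2.5 days (0.82, adjusted p = 0.0073). Calls appeared when 1 library was left out, Kat2a without Cre+ replicate 1 of 2.5 days (0.78), and Kat2b (-0.76) and Kat7 (0.55) without Cre- replicate 2 of 8.5 days. Kat2a (GCN5) was nearest with a log2 change of 0.47 ± 0.18 at 2.5 days (adjusted p = 0.067), and its paralogue Kat2b (PCAF) gave -0.55 ± 0.21 (adjusted p = 0.072). Kat5 (TIP60) gave 0.14 ± 0.14.

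Of the 11 deacetylases, Hdac10 rose at both times, Hdac6 rose at 8.5 days and Hdac7 fell at 2.5 days. Beside them, 13.8% of all genes were higher and 10.2% lower at 2.5 days, and 7.63% and 6.5% at 8.5 days. Hdac10, a class IIb enzyme that deacetylates polyamines, read 6.13 and 5.97 FPKM in Cre- EDL against 11.3 and 11.7 in Cre+ EDL at 2.5 days, and 5.24 and 5.16 against 9.60 and 8.09 at 8.5 days. The groups did not overlap at either time, and at 2.5 days they were apart by several times the spread of their replicates. The log2 fold changes were 0.59 ± 0.13 (adjusted p = 0.0050) and 0.58 ± 0.13 (adjusted p = 0.010). The second was lost without replicate 1 of Cre- (0.58) or of Cre+ (0.51). Hdac6, the other class IIb enzyme and a tubulin deacetylase, read 2.73 and 2.76 against 5.18 and 4.48 FPKM at 2.5 days and 2.04 and 2.71 against 4.32 and 3.56 at 8.5 days. Its log2 changes were alike, 0.49 ± 0.17 and 0.54 ± 0.17, on either side of the fold threshold, and DESeq2 on the same libraries called it at 2.5 days too (0.51, adjusted p = 0.025). The call of 8.5 days was lost without Cre- replicate 1 (0.34), Cre+ replicate 1 (0.45) or Cre+ replicate 2 (0.63).

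Hdac7, a class IIa deacetylase, read 10.9 and 9.13 FPKM in Cre- EDL and 8.24 and 6.13 in Cre+ EDL at 2.5 days. It fell to 0.574-fold (log2 -0.80 ± 0.16, adjusted p = 0.0028). This call held whichever library was left out and was lost with library size alone (-0.48). At 8.5 days it read 8.22 and 7.76 FPKM against 9.31 and 8.45, with a log2 change of -0.03 ± 0.16. The difference between the days, 0.77 ± 0.23, had an adjusted p of 0.31. Its share of the summed class IIa level (Hdac4, Hdac5, Hdac7 and Hdac9) was 22.01 and 22.4% in Cre- EDL and 13.8 and 9.21% in Cre+ EDL at 2.5 days. Hdac4 (0.47 ± 0.23), Hdac5 (0.30 ± 0.13) and Hdac9 (0.49 ± 0.22) were not called in the main fit. Hdac4 was called with DESeq2 on the 4 libraries of the comparison (0.51, adjusted p = 0.025). With library size alone, edgeR called Hdac4 (0.79), Hdac5 (0.64) and Hdac9 (0.82). Of class I, Hdac3 gave -0.45 ± 0.10 (adjusted p = 0.0051), short of the fold threshold, Hdac1 gave 0.55 ± 0.35, Hdac2 0.14 ± 0.15 and Hdac8 -0.45 ± 0.19. Hdac11, whose GENCODE exons overlap a gene on the other strand over 22.4% of their bases, gave -0.09 ± 0.22.

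None of the 8 Cbx readers was called by the main edgeR fit or by DESeq2 in EDL at 2.5 or 8.5 days. None had an unadjusted p under 0.05 in the main fit, and at 2.5 days Cbx6 gave -0.33 and Cbx7 gave 0.23 on the log2 scale. With library size alone, edgeR called Cbx7 at 2.5 days (0.56, adjusted p = 0.020). Cbx6 was called without Cre+ replicate 1 (-0.66). Of the 10 Chd remodellers, Chd2 and Chd3 fell at 2.5 days, where 10.2% of all genes were lower. Chd2 read 8.49 and 6.56 FPKM in Cre- EDL and 6.07 and 6.45 in Cre+ EDL (log2 -0.59 ± 0.19, adjusted p = 0.033). Chd3, an ATPase of the NuRD complex, read 3.53 and 3.11 against 3.19 and 2.48 FPKM (log2 -0.55 ± 0.15, adjusted p = 0.015), and its groups overlapped on the FPKM scale. Both calls depended on single libraries. Chd2 was lost without Cre- replicate 1 (-0.42), Cre+ replicate 1 (-0.59) or Cre+ replicate 2 (-0.59), and Chd3 without Cre- replicate 1 (-0.48) or Cre+ replicate 2 (-0.34). Chd3 was also not called with DESeq2 on the 4 libraries of the comparison. Chd4, the most abundant of the family, gave 0.34 ± 0.16 and Chd1 gave 0.32 ± 0.16, neither of them called. At 8.5 days no Chd gene was called by edgeR or by DESeq2 on the same 16 libraries, and 1 had an unadjusted p under 0.05. Chd2 was called at that time when edgeR was fitted to all 24 libraries (-0.53, adjusted p = 0.034) or without Cre- replicate 2 (-0.74, adjusted p = 0.021).

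Of the 13 Smarc genes, 3 were called higher (23.1%) and 1 lower (7.69%) at 2.5 days, beside 13.8% and 10.2% of all genes. Smarca4 (BRG1), one of the alternative ATPases of BAF complexes, read 10.5 and 11.6 FPKM in Cre- EDL and 21.3 and 29.5 in Cre+ EDL at 2.5 days, and 9.30 and 13.6 against 19.7 and 16.7 at 8.5 days. Every Cre+ library lay above every Cre- library of its day. It rose 1.82-fold at 2.5 days (log2 0.87 ± 0.18, adjusted p = 0.0030), whichever library was left out, and gave 0.49 ± 0.18 at 8.5 days (adjusted p = 0.080). The alternative ATPase Smarca2 (BRM) read 12.1 and 11.5 against 16.2 and 21.0 FPKM at 2.5 days, a fitted log2 change of 0.32 ± 0.14 that was not called (adjusted p = 0.11). Smarca4 made up 46.4 and 50.1% of the sum of both ATPases in Cre- EDL and 56.8 and 58.4% in Cre+ EDL at 2.5 days, and 49.1 and 56.7% against 60.6 and 61.7% at 8.5 days, so that every Cre+ library was above every Cre- library of its day.

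Smarcc1 (BAF155), the scaffold subunit typical of the BAF complex of pluripotent cells, read 4.69 and 4.72 FPKM in Cre- EDL and 7.24 and 10.4 in Cre+ EDL at 2.5 days (log2 0.57 ± 0.15, adjusted p = 0.015). Smarcad1, a remodeller that keeps heterochromatin in place through replication, read 1.55 and 1.57 against 2.51 and 3.19 (log2 0.53 ± 0.16, adjusted p = 0.025). For both genes Cre+ replicate 2 was the higher library, and without it the log2 changes were 0.34 and 0.40 and no longer called. The calls were also lost without Cre- replicate 1 (0.54 and 0.50) or Cre- replicate 2 (0.60 and 0.56). That of Smarcad1 was lost with DESeq2 on the 4 libraries of the comparison as well. At 8.5 days Smarcad1 read 2.23 and 1.69 FPKM in Cre- EDL and 1.955 and 1.61 in Cre+ EDL and was not called. Its change at 8.5 days minus its change at 2.5 days was -0.85 on the log2 scale, which was not called. The alternative scaffold Smarcc2 (BAF170) gave -0.05 ± 0.16, and the core subunit Smarcb1 gave 0.45 ± 0.20 at 2.5 days and 0.63 ± 0.21 at 8.5 days (adjusted p = 0.12 and 0.058). At 8.5 days Smarcb1 was called by DESeq2 on the same libraries (0.62, adjusted p = 0.030) and by edgeR with all 24 libraries (0.60, adjusted p = 0.029), with no filter on low counts (0.63, adjusted p = 0.045), with library size alone (0.81, adjusted p = 0.024) or without Cre- replicate 2 (0.87, adjusted p = 0.028).

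Smarcd3 (BAF60C), the most abundant member, went the other way. It read 58.0 and 59.3 FPKM in Cre- EDL against 41.6 and 41.2 in Cre+ EDL at 2.5 days, and 64.1 and 63.4 against 44.7 and 51.8 at 8.5 days. The Cre+ values were below the Cre- values on both days, with log2 fold changes of -0.83 ± 0.13 (0.562-fold, adjusted p = 0.00069) and -0.58 ± 0.13 (0.670-fold, adjusted p = 0.011). The call of 8.5 days was lost without Cre+ replicate 1 (-0.43). By GENCODE transcripts, 33.0% of its exon bases overlap Chpf2 on the other strand. In the RefSeq coordinates deposited with the counts, the genes do not overlap and lie 136 bases apart. Chpf2 was higher in Cre+ EDL (0.66 ± 0.16 at both times), in the opposite direction to Smarcd3. Smarcd1 (-0.32 ± 0.13) and Smarcd2 (0.00 ± 0.16) were not called at 2.5 days. The share of Smarcd3 in the sum of the 3 BAF60 genes was 80.2 and 80.5% in Cre- EDL and 71.6 and 70.3% in Cre+ EDL at 2.5 days, and 85.8 and 83.8% against 74.3 and 81.5% at 8.5 days.

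**Figure D3:**
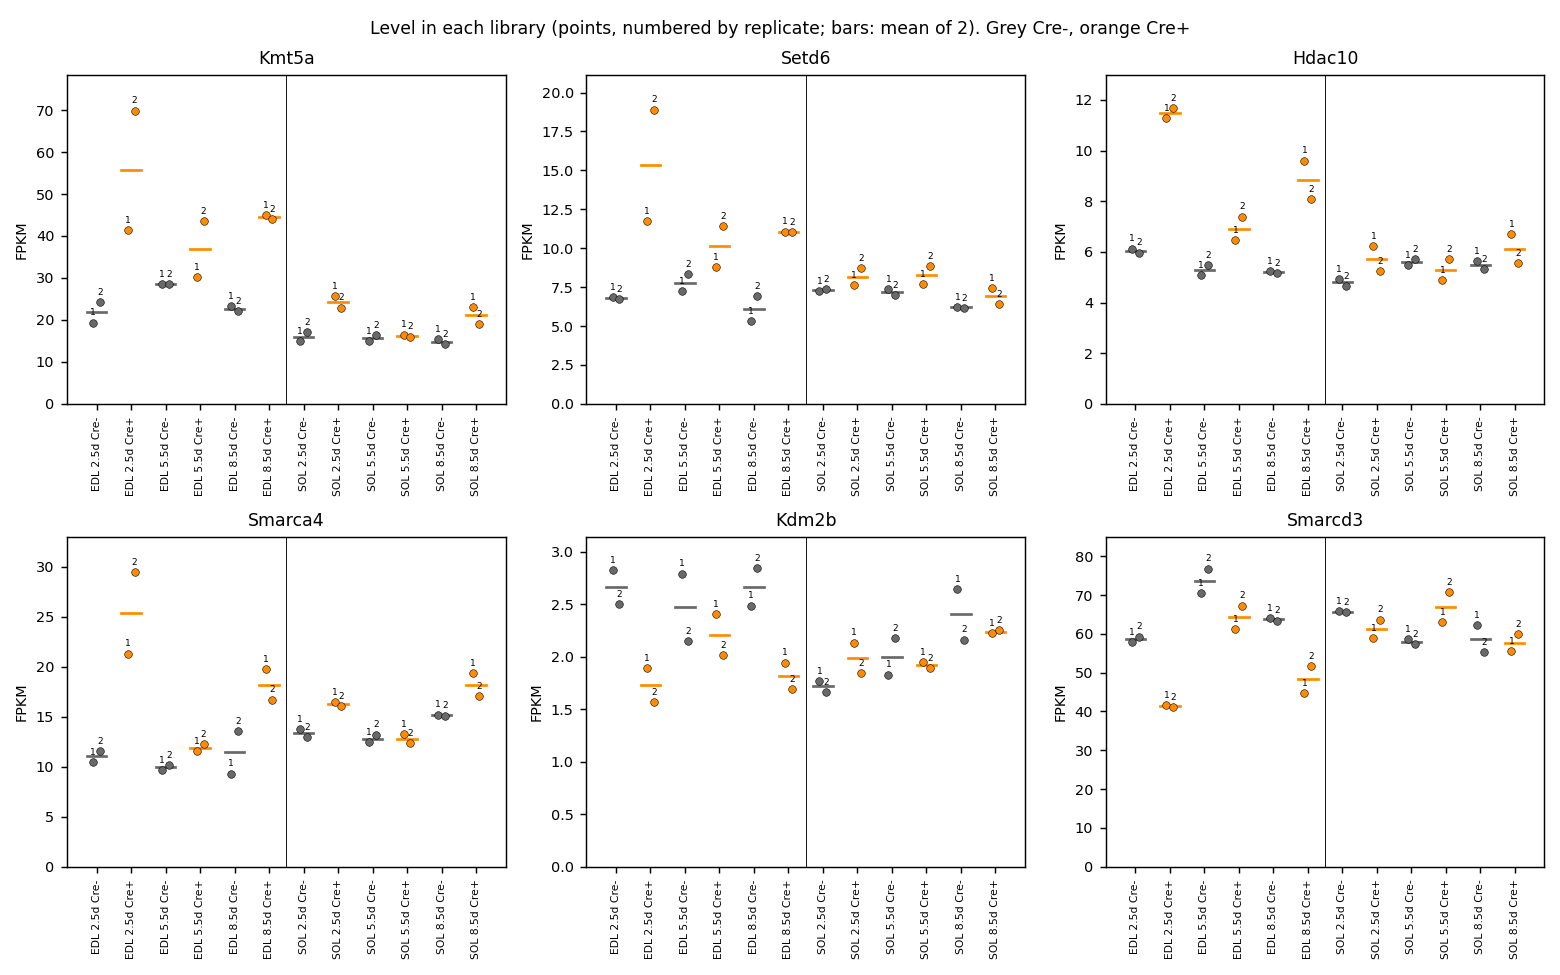
FPKM (vertical axis) of Kmt5a, Setd6, Hdac10, Smarca4, Kdm2b and Smarcd3 in each of the 24 libraries, by muscle, days of Dox and genotype (horizontal axis); points are libraries numbered by replicate and bars are the mean of 2. In EDL at 2.5 and 8.5 days, both Cre+ points of the first 4 genes lie above the Cre- points and those of Kdm2b and Smarcd3 lie below them, and in SOL the genotypes lie closer together.

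Across the families, 5 members were called in the same direction at both times in EDL, namely Kmt5a, Setd6 and Hdac10, which were higher, and Kdm2b and Smarcd3, which were lower. With DESeq2 on the 4 libraries of the 8.5-day comparison, Setd6 (0.68, adjusted p = 0.053) and Hdac10 (0.59, adjusted p = 0.052) were not called, and with library size alone in edgeR Smarcd3 (-0.40) was under the fold threshold at 8.5 days. No member differed between the changes of 8.5 and 2.5 days by edgeR, as was so for 0% of all genes, and by DESeq2 the count was also 0. At an unadjusted p under 0.05 there were 5 such members, Chd7, Hdac7, Katnal2, Kdm7a and Smarcad1.

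The DNA before the start sites of these members was examined next. The RefSeq promoter table of GRCm38.p6, which spans each gene's start site, held 69 of the 93 members. The 4 promoters shown are those of members called at both times, the first pair higher and the second pair lower in Cre+ EDL, each written 5′ to 3′ along the gene's strand with the letters of the motifs searched in capitals. Hdac10 was not in the table.
Kmt5a, chr5:124445249-124445548, plus strand: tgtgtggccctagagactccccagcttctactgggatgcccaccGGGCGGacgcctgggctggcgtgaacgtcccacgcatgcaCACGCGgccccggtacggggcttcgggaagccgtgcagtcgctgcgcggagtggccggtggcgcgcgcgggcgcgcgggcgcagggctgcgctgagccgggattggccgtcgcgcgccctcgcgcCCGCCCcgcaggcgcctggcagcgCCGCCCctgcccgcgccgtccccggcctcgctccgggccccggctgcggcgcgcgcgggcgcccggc
Setd6, chr8:95715663-95715962, plus strand: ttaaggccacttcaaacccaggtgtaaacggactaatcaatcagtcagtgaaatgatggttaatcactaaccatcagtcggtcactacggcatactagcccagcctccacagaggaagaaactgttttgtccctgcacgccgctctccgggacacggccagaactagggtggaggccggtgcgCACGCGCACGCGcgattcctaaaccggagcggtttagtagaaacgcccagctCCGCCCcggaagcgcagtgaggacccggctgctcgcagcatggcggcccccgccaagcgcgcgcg
Kdm2b, chr5:122989050-122989349, minus strand: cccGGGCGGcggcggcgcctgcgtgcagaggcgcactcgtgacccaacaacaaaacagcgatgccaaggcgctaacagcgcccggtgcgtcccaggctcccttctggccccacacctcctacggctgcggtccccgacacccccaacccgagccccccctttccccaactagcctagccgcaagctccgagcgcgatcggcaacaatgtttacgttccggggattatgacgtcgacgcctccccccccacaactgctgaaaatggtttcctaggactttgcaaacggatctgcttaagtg
Smarcd3, chr5:24601953-24602252, minus strand: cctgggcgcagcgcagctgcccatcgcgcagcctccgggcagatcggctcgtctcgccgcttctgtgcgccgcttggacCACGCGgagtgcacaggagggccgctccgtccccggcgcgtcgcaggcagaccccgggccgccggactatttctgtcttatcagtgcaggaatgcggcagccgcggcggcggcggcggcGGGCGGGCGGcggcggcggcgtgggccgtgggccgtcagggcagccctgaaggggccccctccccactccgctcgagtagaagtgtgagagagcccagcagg

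The motifs searched on both strands were the E-box CACGTG bound by Myc and its partner Max, the variant E-box CACGCG, the octamer ATGCAAAT bound by Oct4 and the GC box GGGCGG bound by Sp and Klf factors. The E-box CACGTG was in 8.12% of all 17592 promoters, in 6 of the 69 members' promoters (8.70%) and in none of the 11 promoters of members called in EDL. The octamer was in 1.64% of all promoters and in 2 of the members' (Chd6 and Hdac9). The GC box was in 47.2% of all promoters, in 62.3% of those of the tested genes and in 47 of the 69 members' (68.1%). The variant CACGCG was in 12.4% of all promoters, in 16.7% of those of the tested genes and in 17 of 69 of the members'. It was found in 5 of the 7 promoters of members called higher in EDL (Ezh2, Kmt5a, Setd6, Smarca4 and Smarcad1) and in 2 of the 4 of members called lower (Kdm7a and Smarcd3). The motif letters describe these windows and say nothing about binding.

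In SOL, where the OSKM level was lower, far fewer members were called. At 2.5 days edgeR called none, with 0.345% of all genes higher and 0.039% lower (0.384% either way), 9 members had an unadjusted p under 0.05, and DESeq2 on the same libraries called 3, all higher (Katnal2, Hdac9 and Cbx5). At 8.5 days edgeR called 1 member, Katnal2, with 0.332% of all genes higher and 0.299% lower. Hdac9 read 2.17 and 2.66 FPKM in Cre- SOL and 5.56 and 5.12 in Cre+ SOL at 2.5 days, groups that were well apart, with a log2 change of 1.00 ± 0.22 (adjusted p = 0.083). It was called when all 24 libraries were fitted (0.98, adjusted p = 0.038), and at 8.5 days its groups overlapped (0.23 ± 0.21). Cbx5, the heterochromatin protein HP1 alpha, gave 0.55 ± 0.14 (adjusted p = 0.14) and Kmt5a gave 0.45 ± 0.19 at 2.5 days and 0.46 ± 0.19 at 8.5 days (adjusted p = 0.34 and 0.66).

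Katnal2 had the largest fitted change among the 92 in SOL at both times and in EDL at 8.5 days. In SOL it had 4 and 2 counts in Cre- and 50 and 32 in Cre+ at 2.5 days, and 2 and 1 counts in Cre- and 79 and 27 in Cre+ at 8.5 days. Every Cre+ library was above every Cre- library, and the fitted log2 changes were 3.43 ± 0.71 (adjusted p = 0.068) and 4.63 ± 0.78 (adjusted p = 0.017). Because Cre- SOL at 8.5 days lay under 3 counts per library, the change by the mean level was at least 13.7-fold with each Cre- library set to 3 counts. By the lower Cre+ library alone it was at least 7.22-fold. The call of 8.5 days was lost without Cre- replicate 1 (5.28), Cre- replicate 2 (4.14) or Cre+ replicate 1 (3.76), and the gene left the test when at least 10 counts were asked of every library. In EDL it had 62 and 104 counts in Cre- and 178 and 75 in Cre+ at 2.5 days, which overlapped (log2 0.24 ± 0.46), and 36 and 29 against 322 and 279 at 8.5 days, which did not (2.64 ± 0.49, adjusted p = 0.0037).

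The change in EDL minus the change in SOL was tested directly. At 2.5 days 2 members differed, both in the negative direction (2.17% of members, against 0.891% of all genes lower and 3.36% higher). Kdm2b read 1.77 and 1.67 FPKM in Cre- SOL and 2.14 and 1.84 in Cre+ SOL, a log2 change of 0.06 ± 0.17 beside -0.95 in EDL, and the difference was -1.005 ± 0.24 (adjusted p = 0.039). Kat6b, an acetyltransferase of histone H3, read 3.46 and 3.84 against 5.16 and 5.63 FPKM in SOL (log2 0.41 ± 0.10) and 4.29 and 3.62 against 4.05 and 4.403 in EDL (-0.23 ± 0.10), and the difference was -0.65 ± 0.15 (adjusted p = 0.032). Neither change of Kat6b was called on its own. Same-numbered libraries of both muscles deviated together, and with this number as a block 4 members differed, all in the negative direction, with Chd6 (-0.74) and Katnal2 (-3.24) added. Of the 8 fits that left out 1 library, 7 gave no member: the difference of Kdm2b ran from -0.83 without Cre+ EDL replicate 2 to -1.11 without Cre+ SOL replicate 2, and that of Kat6b from -0.55 without Cre- EDL replicate 1 to -0.74 without Cre- EDL replicate 2. Without Cre+ EDL replicate 1, 10 members differed.

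At 8.5 days edgeR found no member whose change differed between muscles, with 0.533% of all genes higher and 0.0585% lower, and 7 members had an unadjusted p under 0.05. DESeq2 on the same libraries also called 0. Smarcd3 gave differences of -0.58 ± 0.19 and -0.52 ± 0.19 at the 2 times (adjusted p = 0.099 and 0.31), and Smarca4 gave 0.74 ± 0.25 and 0.26 ± 0.25 (adjusted p = 0.11 and 0.77). The difference of Smarca4 at 2.5 days was called with all 24 libraries in the fit (0.76, adjusted p = 0.046 by edgeR), by DESeq2 on the same libraries (0.78, adjusted p = 0.036) and by edgeR without Cre+ EDL replicate 1 (0.92, adjusted p = 0.038), so that its call depends on the fit.

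At 5.5 days edgeR called no member in EDL, where 0.258% of all genes were higher and 0.0452% lower, and none in SOL, where 0% of all genes were called. Unadjusted p values under 0.05 were found for 3 members in each muscle, and DESeq2 called 1 member in EDL, Katnal2, and 0 in SOL. Katnal2 had 90 and 78 counts in Cre- EDL and 358 and 352 in Cre+ EDL (log2 2.02 ± 0.52, adjusted p = 0.15). Of the 5 members called at both other times, Kmt5a read 28.5 and 28.6 FPKM in Cre- EDL and 30.3 and 43.6 in Cre+ EDL, Setd6 read 7.26 and 8.31 against 8.80 and 11.4, and Hdac10 read 5.09 and 5.48 against 6.46 and 7.39. Smarcd3 read 70.6 and 76.8 against 61.3 and 67.3, and Kdm2b read 2.79 and 2.15 against 2.41 and 2.02. The groups were apart for the first 4 genes and overlapped for Kdm2b, and none of these changes was called. On this scale both Cre+ EDL libraries lay above both Cre- libraries in 34.82% of all genes and below them in 8.005%.

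The sex-chromosome members set the days apart. The Y-linked demethylase Kdm5d had 677 to 1058 counts in all 8 libraries of 2.5 days (3.16 to 4.25 FPKM) and 0 to 3 counts in all 16 libraries of 5.5 and 8.5 days. Its X-linked counterpart Kdm5c, which escapes X inactivation, stood at 4.14 to 5.34 FPKM at 2.5 days, at 5.58 to 6.80 at 5.5 days and at 6.12 to 9.08 at 8.5 days, and Kdm6a, another escape gene, at 2.09 to 3.28, 3.73 to 5.47 and 3.45 to 5.47. Both X-linked genes were lower in every library of 2.5 days than in every library of the other days. Within a day the genotypes and muscles were alike in Kdm5d, so that the comparisons of Cre+ with Cre- were within 1 sex, whereas day and sex cannot be told apart in any comparison between days.

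**Figure D4:**
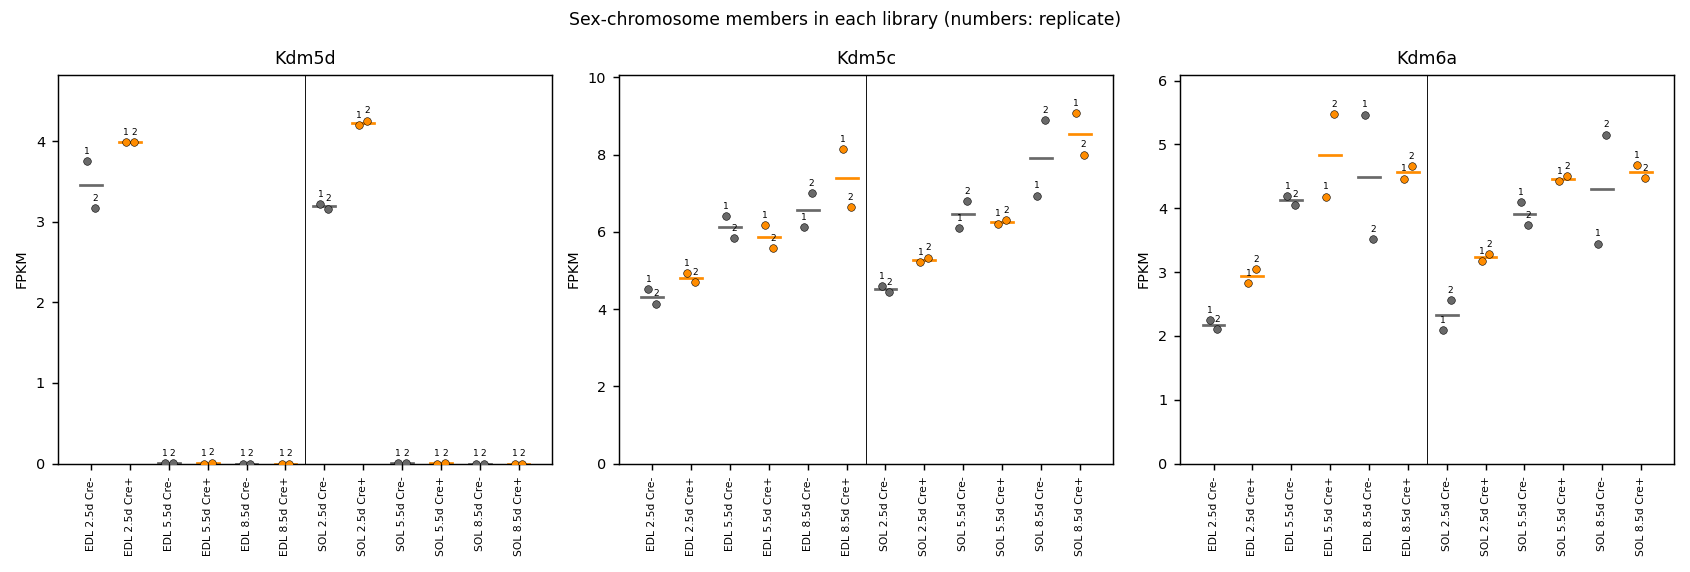
FPKM (vertical axis) of the Y-linked Kdm5d and the X-linked Kdm5c and Kdm6a in each of the 24 libraries, by muscle, days of Dox and genotype (horizontal axis; points are libraries numbered by replicate, bars the mean of 2). Kdm5d is present at 2.5 days only (3.16 to 4.25 FPKM), and Kdm5c and Kdm6a are lowest at 2.5 days.

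Setd5, a SET-domain protein of chromatin complexes, varied widely between the replicates of Cre- groups. It read 120.8 CPM (counts per 1e6 counts of the library) in Cre- EDL and 124 in Cre- SOL of replicate 2 at 2.5 days, and 196 in both muscles of Cre- replicate 2 at 8.5 days, while the other 20 libraries lay between 42.9 and 75.0 CPM. In each case both muscles with the same replicate number were high. The log2 changes of Cre+ over Cre- in EDL were -0.83 ± 0.58 and -1.16 ± 0.59, and those in SOL -0.60 ± 0.58 and -0.91 ± 0.58, none of them called, and without the Cre- library of replicate 2 they were -0.06, 0.06, 0.07 and 0.05.

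Setd5 (chr6:113104935-113153432, plus strand) begins 27691 bases from Gt(ROSA)26Sor (chr6:113070399-113077244, minus strand), the transcript of the ROSA26 locus that carries the rtTA allele in this study. This transcript was lowest in the same 4 libraries, at 0.361 to 0.603 CPM. It was 1.39 to 2.98 CPM in the other Cre- libraries of 2.5 and 8.5 days, 4.36 to 8.05 in the Cre+ libraries of those days and 4.02 to 9.20 in all 8 libraries of 5.5 days, the 4 Cre- ones included (4.02 to 4.58). Cre- libraries of 5.5 days thus overlapped the Cre+ range of the other days in this transcript, and their summed OSKM level was 11.5 to 16.1 FPKM. On the other side of the locus, Thumpd3 was higher in Cre+ EDL (log2 0.86 ± 0.19 and 0.73 ± 0.19). The breeding described gives all mice the same ROSA26 allele, and whether these 4 libraries carried it was not tested.

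**Figure D5:**
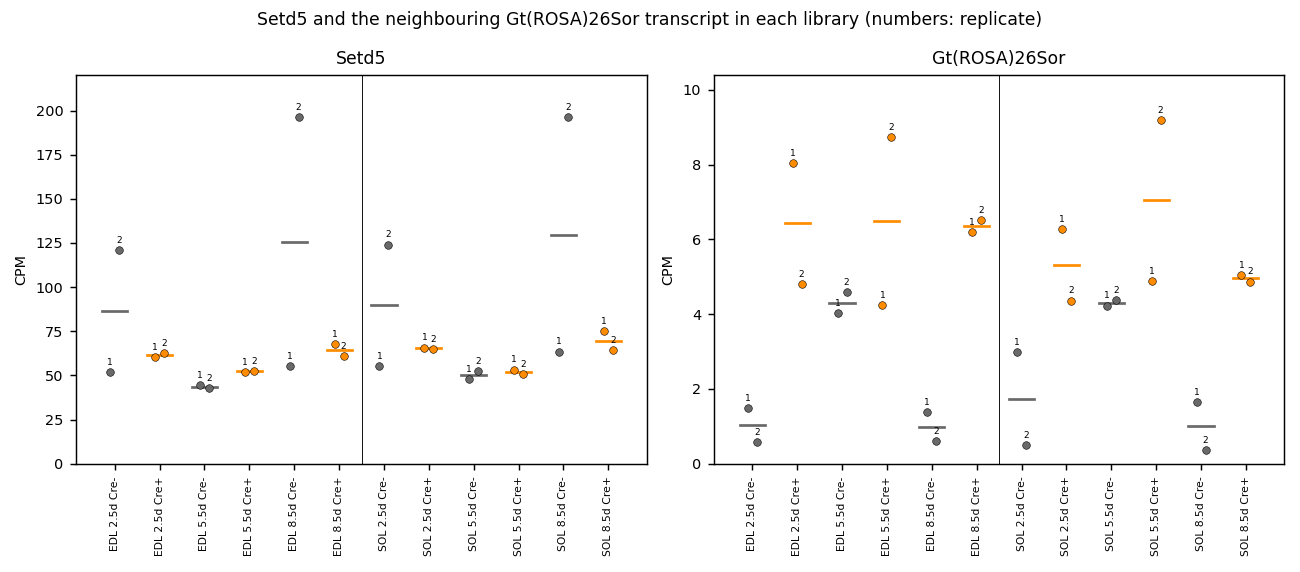
CPM (vertical axis) of Setd5 and of the neighbouring Gt(ROSA)26Sor transcript in each of the 24 libraries, by muscle, days of Dox and genotype (horizontal axis; points are libraries numbered by replicate, bars the mean of 2). Setd5 is at 120.8 to 196 CPM in replicate 2 of Cre- at 2.5 and 8.5 days, the libraries in which Gt(ROSA)26Sor is lowest.

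Partner subunits and related enzymes outside the symbol rule were read from lists of other chromatin genes. Their counts stand beside 13.8% higher and 10.2% lower among all genes at 2.5 days and 7.63% and 6.5% at 8.5 days, and nothing particular to a list is read from them. Of 23 Polycomb partners, 1 was higher and 3 were lower in Cre+ EDL at 2.5 days and 3 were lower at 8.5 days. The PRC2 cofactor Aebp2 was higher (log2 0.76 ± 0.16), the PRC1 subunit Phc1 (-0.96 ± 0.20), the PRC2 cofactor Jarid2 (-0.51 ± 0.13) and the histone binder Rbbp7 (-0.55 ± 0.11) were lower at 2.5 days, and at 8.5 days the PRC2 core subunit Suz12 (-0.73 ± 0.20), the PRC1 subunit Bmi1 (-0.53 ± 0.16) and again Jarid2 (-0.50 ± 0.13) were lower. Of 16 other BAF and PBAF subunits tested, Brd9 was higher at both times (0.65 ± 0.14 each) and Bcl7c was lower at 8.5 days (-0.87 ± 0.19). Of 18 partners in NuRD, Sin3 and CoREST complexes, 3 were higher at 2.5 days and 2 at 8.5 days and none was lower, with the CoREST subunit Rcor2 the largest at both times (1.44 ± 0.36 and 1.18 ± 0.36).

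Of 14 INO80, SRCAP and ISWI subunits, 2 were higher and 1 was lower at 2.5 days, among them the ISWI subunit Baz1a (1.5 ± 0.32) and the ATPase Ino80 (-0.63 ± 0.17), and none was called at 8.5 days. Of 18 other methyltransferases, 2 were higher and 3 lower at 2.5 days and 1 each way at 8.5 days. Smyd5 had the largest rise (1.71 ± 0.30 and 1.09 ± 0.30), while the muscle gene Smyd1, needed for sarcomere assembly, and the heterochromatin enzyme Suv39h1 were lower at 2.5 days (-0.91 ± 0.17 and -0.78 ± 0.17), and Dot1l was lower at both times (-0.69 ± 0.15 and -0.54 ± 0.15). Of 12 other acetyltransferases only Ep300 was called, lower at both times (-0.59 ± 0.18 and -0.58 ± 0.18), with overlapping groups on the FPKM scale. Sirt4, a mitochondrial enzyme, was the only one of 7 sirtuins called, lower at both times (-0.55 ± 0.13 and -0.51 ± 0.13). Of 11 partners of the MLL methyltransferases, Dpy30 (1.081 ± 0.26) and Wdr5 (0.59 ± 0.17) were higher at 2.5 days and none was called at 8.5 days. The list medians lay between -0.19 and 0.10 on the log2 scale, beside -0.05 and -0.02 over all genes.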

How the data were processed

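Poly-A RNA of whole EDL and SOL muscle was sequenced single-end from stranded libraries. Per the labels and the study's methods, the authors aligned reads to mm10 with STAR 2.5.3a, counted uniquely aligned reads over RefSeq exons with HOMER and deposited raw read counts per gene; whether strand was used in counting is not given in the sources used here. FPKM and CPM were computed here from these counts, the exon length in the same table and the total count.

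Genes were tested with edgeR 4.0.16 in R 4.3.3 (quasi-likelihood test, TMM scaling, Benjamini-Hochberg adjustment over all genes tested). The 16 libraries of 2.5 and 8.5 days were fitted as 8 groups over 15372 genes that passed edgeR's filter at a minimum count of 10, and the 5.5-day comparisons came from all 24 libraries in 12 groups over 15478 genes. Genes were called at an adjusted p below 0.05 with a log2 fold change beyond 0.5 either way. Alternatives were DESeq2 1.42.0, other scalings, filters and thresholds, the replicate number as a block, and dropping libraries singly. A total of 3 counts in a library corresponds to 0.0549 to 0.0831 CPM; such floors cover counting error only. On counts simulated for EDL at 2.5 days over 15372 genes, 55 of 100 genes changed by log2 1 and 87 of 100 changed by log2 2 were recovered. Beside these 142 recovered genes, 11 unchanged genes were called. An exact permutation test of 2 against 2 libraries cannot give a p below 0.333, so none was run.

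EDL and SOL libraries with the same replicate number deviated together in all 6 groups (r from 0.173 to 0.445 across genes, which are not independent replicates), so these numbers were taken to pair the muscles of a mouse. The main fits did not use this pairing, and only the replicate-block fits between muscles did. Nothing in the labels says how else replicates relate, and p-values measure the spread between these libraries. The members and lists were chosen with earlier results of these data known. Genes were named by a rule: members called at both times in EDL, members with a known role in muscle or reprogramming, the most abundant member of each family, members called in SOL or in a difference of changes, the 5 largest differences each way between Cre- muscles, and the 2 largest rises and falls of each list. Chd2, Chd3, Chd6, Smarcad1, Kdm7a and Kat6a in their called comparisons, Setd5, Cbx5, Jarid2 and Dot1l were also named after their values were seen. Promoter sequences are from RefSeq on GRCm38.p6. Exon overlaps between genes are from GENCODE transcripts, which differ from the RefSeq exons that were counted. Values of 2 members are not reported here.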

Additional observations from a re-analysis of the deposited data

Results flagged for a closer look

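The change of Kat6b at 2.5 days differed between the muscles by a test of the difference itself. It was -0.65 on the log2 scale for EDL minus SOL (edgeR's quasi-likelihood test, Benjamini-Hochberg adjusted p = 0.032), from -0.23 in EDL and 0.41 in SOL. The call was lost in 7 of the 8 fits that left out 1 library (-0.74 to -0.55), with library size alone (-0.47) and with no filter beyond 1 count (-0.65, adjusted p = 0.051). The change of Kdm2b at 2.5 days differed in the same way, by -1.005 (adjusted p = 0.039), from -0.95 in EDL and 0.06 in SOL. It too was lost in 7 of the 8 fits that left out 1 library (-1.11 to -0.83). Groups of 2 libraries are too small for a test of single outlying samples.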

How the results depend on the processing

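Calls rested on 2 libraries a group. Of the 36 results called, under the alternatives other than leaving out a library, 294 values kept their direction and side of the threshold and 49 kept their direction without passing it; when 1 library was left out the numbers were 134 and 66. No result changed direction. With library size alone, 27 members were called in EDL at 2.5 days and 2 in SOL at 2.5 days, and the members' median log2 changes were 0.31 and 0.12 in EDL at 2.5 and 8.5 days, 0.23 and 0.034 in SOL, and 0.11 and 0.016 in EDL and SOL at 5.5 days. The median FPKM over the members in Cre- EDL was 5.45, and 5.96 with TMM-scaled totals. An absolute log2 fold change over 1 left 1 call in EDL at 2.5 days, 1 at 8.5 days, 1 for EDL minus SOL at 2.5 days and 4 for EDL over SOL, where no fold threshold gave 29. DESeq2 on the same libraries gave 3 calls in SOL at 2.5 days, 6 for EDL minus SOL at 2.5 days and 1 in EDL at 5.5 days, and DESeq2 on the 4 libraries of a comparison gave 5 in EDL at 8.5 days, 3 in SOL at 2.5 days and 1 in EDL at 5.5 days. In SOL at 2.5 days, fitting all 24 libraries gave 1 call and no filter gave 2, and asking for at least 10 counts in every library left 0 in SOL at 8.5 days, because Katnal2 was then not tested. The cause of the other shifts was not tested.

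Leaving out 1 library gave 6 to 20 calls in EDL at 2.5 days, 1 to 14 at 8.5 days, 0 in SOL at 2.5 days, 0 to 1 at 8.5 days, 0 to 10 for EDL minus SOL at 2.5 days and 0 at 8.5 days, 0 to 2 between days, 9 to 16 for EDL over SOL, and 0 in both muscles at 5.5 days. The extremes came without Cre+ replicate 1 (20) and Cre+ replicate 2 (6) at 2.5 days, and without Cre- replicate 2 (14) and Cre+ replicate 1 (1) at 8.5 days. The replicate block by mouse gave 4 calls for EDL minus SOL at 2.5 days. Cre+ and Cre- libraries share only a number (correlation of deviations from -0.169 to 0.0578); with it as a replicate block, 11 members were called in EDL at 2.5 days and 6 at 8.5 days, and Chd2, Ezh2, Hdac6 and Kdm7a no longer passed.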
